A study of Homo sapiens with 2 samples.

Results

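The RNAs of 5 genes that encode abundant molecular chaperones were examined, HSP90AB1, HSP90AA1, HSPA8, HSPA5 and HSPD1. The places sought were those where the splicing factor SRSF1 was crosslinked to these RNAs in H1299 cells. The windows of the 5 genes held 25 of the 6754 listed crosslink sites (0.370%), namely 16 truncation sites and 9 mutation sites. The study consists of 2 SRSF1 HITS-CLIP libraries, replicates 1 and 2 of 1 group of H1299 cells, for which the labels name no treatment or genetic change and no control library. H1299 is a widely used cell line from a human non-small cell lung cancer. HITS-CLIP joins a protein to its RNA in living cells by ultraviolet light, precipitates the protein and sequences the bound RNA fragments (tags). The peptide left on the RNA can stop the reverse transcriptase, which gives a truncation site, or make it misread, which gives a mutation site.

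Sites were taken as members when their midpoint fell, on the gene's strand, in an hg19 window given for each gene: chromosome 6, 44214800 to 44221700, plus strand, for HSP90AB1; chromosome 14, 102547000 to 102606100, minus strand, for HSP90AA1; chromosome 11, 122928100 to 122932900, minus strand, for HSPA8; chromosome 9, 127997100 to 128003700, minus strand, for HSPA5; and chromosome 2, 198351300 to 198365200, minus strand, for HSPD1. The genes were chosen by the sites listed in them, with the dense group of sites in HSP90AB1 known. The number of sites, their density, their depth and the nearness of the kinds of site to each other are therefore a description and carry no test. Both libraries were combined by the authors into 1 list, so no value below has a replicate spread, and library depth is unknown. No site lay on the opposite strand of any window. Within 50000 nt of the windows there were 3 further sites, all on the other strand, and the nearest further site on the gene's own strand was 84366 nt from a member. The window edges therefore decided no membership.

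Chaperones bind other proteins while they fold, assemble or cross membranes. HSP90AB1 and HSP90AA1 encode the constitutive and the stress-inducible form of cytosolic HSP90, a dimeric ATPase that acts late in the folding of kinases and steroid receptors. HSPA8 encodes HSC70, the constitutive cytosolic HSP70 that binds nascent chains and uncoats clathrin, and HSPA5 encodes BiP, the HSP70 of the endoplasmic reticulum. HSPD1 encodes HSP60, the chaperonin of the mitochondrial matrix. SRSF1 is an SR protein that binds purine-rich RNA, takes part in exon recognition and moves with messenger RNA to the cytoplasm.

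The coding sequences of the HSP90 genes and of HSPA5 were rich in GAAGA, among the purine motifs associated with SRSF1-type binding. The motif GGAGA, the motif GAAGA and the longer GAAGAA were counted on the sense strand only, overlaps included, so that each GAAGAA also holds a GAAGA. HSP90AA1 had 31 GAAGA in 2196 coding nt (14.1 per 1000 nt, above 99.4% of 18919 human coding sequences of at least 300 nt), and HSP90AB1 had 23 in 2172 coding nt (10.6 per 1000 nt, above 97.8%). HSPA5 followed with 8.66 per 1000 nt (above 95.6%) and HSPD1 with 6.40 (above 88.6%). HSPA8 had the lowest density of the 5, 4.64 per 1000 nt (above 75.6%). Over all coding sequences the median was 2.83 per 1000 nt, and 89.6% held a GAAGA at all. GGAGA was densest in HSP90AB1, at 5.06 per 1000 nt (above 90.4%). HSP90AA1 had 3.64, HSPA5 3.57, HSPD1 3.49 and HSPA8 2.58. The GGAGA median was 2.27, and 88.8% of coding sequences held it. GAAGAA reached 7.29 per 1000 nt in HSP90AA1, 4.14 in HSP90AB1, 3.57 in HSPA5, 2.91 in HSPD1 and 1.03 in HSPA8. Its median was 0.868, and 66.7% of coding sequences held GAAGAA. The 60 coding nt with the most bases in these motifs are shown for the HSP90 genes and for HSPA8. Among the 5 genes, the HSP90 genes have the sites with the most tags of either kind. HSPA8 has as many sites as HSP90AB1, 7, but at most 8 truncated tags at a site. Motif bases are in capitals, and the sequences are GENCODE v29 transcripts of the GRCh38 build.
HSP90AB1: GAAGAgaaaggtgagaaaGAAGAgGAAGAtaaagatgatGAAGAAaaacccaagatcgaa
HSP90AA1: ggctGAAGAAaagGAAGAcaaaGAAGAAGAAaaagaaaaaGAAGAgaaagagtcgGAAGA
HSPA8: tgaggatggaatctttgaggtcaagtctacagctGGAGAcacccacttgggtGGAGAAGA
Counted from the first base of the start codon, these are coding positions 694 to 753, 702 to 761 and 636 to 695. They hold 21, 30 and 13 motif bases. As many as 30 were reached in some 60-nt stretch of 0.703% of all coding sequences, 21 in 5.56% and 13 in 34.5%, and the median highest value was 11. In HSPA5 and HSPD1 the richest stretch, not shown, held 17 and 13 motif bases, and 13.1% of coding sequences reached 17. In the HSP90 genes the stretch lies at almost the same coding position. The sites are listed in hg19 coordinates and no hg19 sequence or annotation was used here. Whether any site lies in these stretches, or in an exon, intron or untranslated region, is therefore not given, and a motif match in a transcript is not a binding site.

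The HSP90 genes carried 15 of the 25 sites, and their sites were of both kinds, whereas the other 3 genes carried truncation sites almost alone. HSP90AB1 had 3 truncation and 4 mutation sites, and HSP90AA1 had 4 of each. HSPA8 had 6 truncation sites and 1 mutation site, HSPA5 had 2 truncation sites and HSPD1 had 1. With sites within 50 nt merged, the order changed: of 16 positions HSP90AB1 held 3 and HSP90AA1 4, and HSPA8 held the most, 6. Mutation sites made up 53.3% of the sites in the HSP90 pair (95% exact Clopper-Pearson interval 26.6 to 78.7%), 10% in the other 3 genes (0.253 to 44.5%) and 29.95% of the whole list (28.9 to 31.1%). The intervals of the gene groups overlap, cover counting error only and treat neighbouring sites as independent, which they are not.

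**Figure D1:**
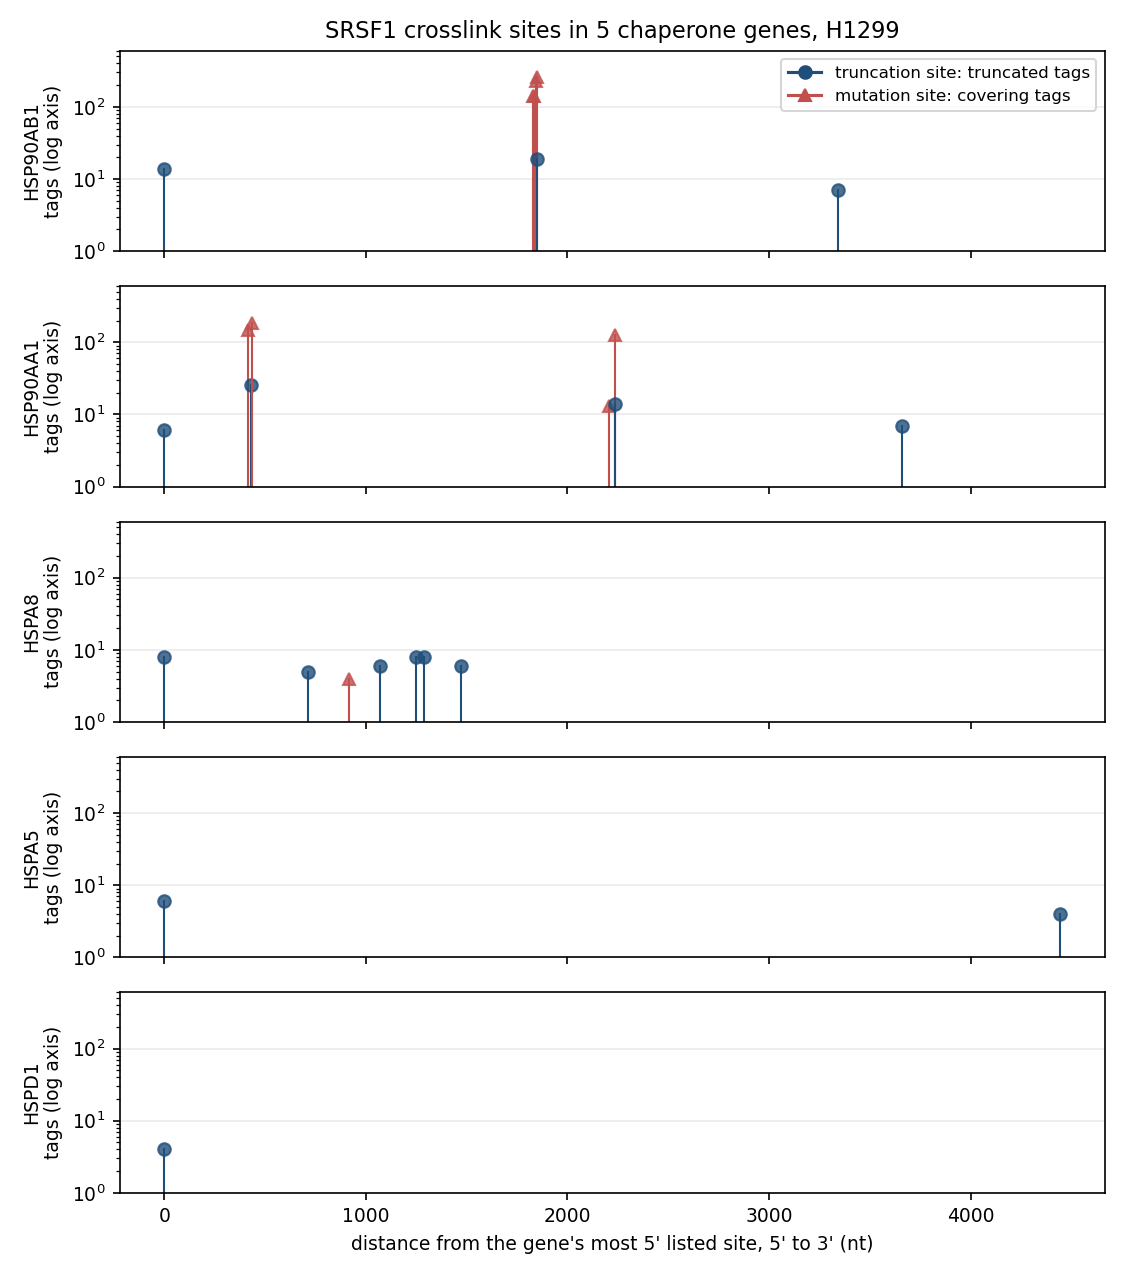
Sites of each gene by their distance on the genome in nt (5′ to 3′) from its most 5′ listed site, with tags on a log axis. Circles give the truncated tags of truncation sites, triangles the tags covering mutation sites, and the stems only mark the position. Circles and triangles count different tags and are not to be set against each other. Circles reach 26 tags in the HSP90 genes and 8 in the other 3 genes. Triangles above 100 tags appear in the HSP90 genes, and the 1 triangle of the other 3 genes is at 4 tags.

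HSP90AB1 held the most compact group of 5 or more sites in the list. Its centre, at 44219877 to 44219915 on chromosome 6, had 5 sites in 39 nt, 4 of them mutation sites. From 5′ to 3′, the first mutation site was covered by 140 tags, of which 12 were mutated (8.57%, 95% interval 4.51 to 14.5%). The second, 3 nt on, was covered by 143 tags with 5 mutated (3.50%, 1.14 to 7.97%). The third was covered by 230 tags with 10 mutated (4.35%, 2.10 to 7.85%). The last was covered by 257 tags with 14 mutated (5.45%, 3.01 to 8.97%). All 4 intervals of the mutated share overlap, while the coverage rose towards the 3′ end. Neighbouring positions can share tags, and the list does not give how many, so these cannot be taken as 4 separate samples of RNA.

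The truncation site of this group had the same 21-nt interval, 44219895 to 44219915, as the deepest mutation site. It had 19 truncated tags against 1.90 expected per position of its tag cluster, a ratio of 10, with an authors' P of 6.28e-10. Only 36 of the 4731 listed truncation sites had a higher expected number, and 103 had more truncated tags. An identical interval for a truncation and a mutation site occurred at 18 places in the list, and the HSP90AB1 place was the second of them by covering tags. The other 3 mutation sites lay 18, 15 and 2 nt 5′ of the truncation site.

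With same-strand sites joined across gaps of at most 1000 nt, 72 loci in the list had 5 or more sites, and this one was the shortest, at 39 nt against 176 nt for the next. It held 12.8 sites per 100 nt, against 4.55 in the second densest locus and a median of 0.575. With joining at 50 nt instead, 8 positions had 5 or more sites, and only this one was as short as 39 nt. At 3 positions, this one included, there were 4 or more mutation sites. The remaining HSP90AB1 sites were single truncation sites. The site at 44218047 to 44218067, 1848 nt 5′ of the central one, had 14 truncated tags against 0.73 expected. The site at 44221387 to 44221407, 1492 nt 3′ of it, had 7 against 0.27. Neither had a mutation site near it.

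HSP90AA1 had a pair of such mixed groups. The 5′ group, at 102551266 to 102551304 on chromosome 14, held 3 sites in 39 nt. Its truncation site had 26 truncated tags against 0.98 expected (ratio 26.5), the most of any chaperone truncation site. Its P is shown as 1e-100, a label used here for the lowest P values of the list, and not an exact probability. In the list 140 sites fall under this label, and 25 listed sites had more truncated tags. A mutation site 15 nt 5′ of it was covered by 149 tags with 6 mutated (4.03%, 1.49 to 8.56%), and one 3 nt 3′ of it was covered by 185 tags with 4 mutated (2.16%, 0.592 to 5.44%).

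The 3′ group of HSP90AA1, at 102549461 to 102549514, held 3 sites in 54 nt. Its truncation site had 14 truncated tags against 1.30 expected (ratio 10.8). The mutation site 2 nt 5′ of it was covered by 126 tags with 7 mutated (5.56%, 2.26 to 11.1%). A second mutation site, 33 nt 5′, was covered by 13 tags with 4 mutated (30.8%, 9.09 to 61.4%), which is the one shallow mutation site of the HSP90 pair. The other HSP90AA1 sites were single truncation sites, with 6 tags against 0.31 expected at 102551699 to 102551719 and 7 against 0.26 at 102548041 to 102548061. All 8 sites lay in 3679 nt, 6.22% of a window that was drawn wide, and none in the remaining stretch towards its 5′ edge.

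**Figure D2:**
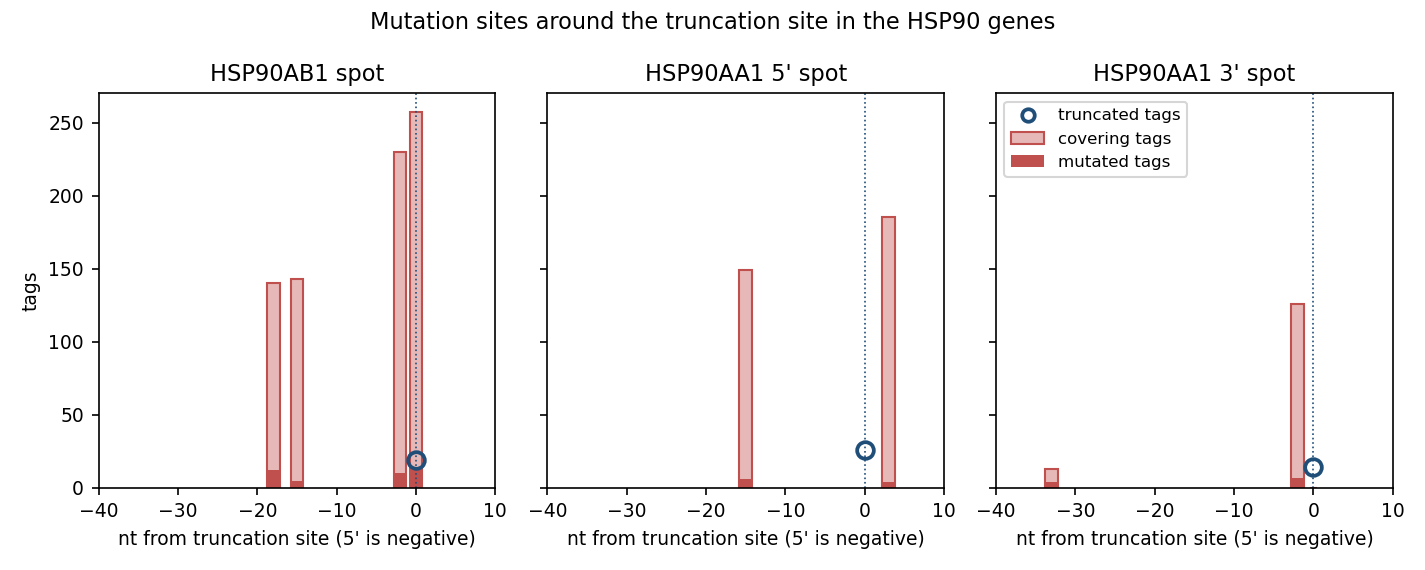
Mutation sites around the truncation site (0, dotted line) in the 3 mixed groups of the HSP90 genes, with distance in nt on the x axis (5′ negative) and tags on the y axis. Pale bars give covering tags, dark bars mutated tags and open circles truncated tags. Within each group the more 3′ bar is the taller one, up to 257 tags in HSP90AB1, and the mutated part is small except at the 13-tag site.

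The deep mutation sites lay in the HSP90 genes. Of the 9 mutation sites, 7 were covered by 100 or more tags, 4 in HSP90AB1 and 3 in HSP90AA1, which 51 of all 2023 mutation sites were (2.52%). The 7 belong to the 3 groups above, whose neighbouring positions can share tags. HSPA8 had its only mutation site at 4 covering tags, and HSPA5 and HSPD1 had none listed. The 51 deep sites fell in 16 loci, and 3 of these loci held more than the 4 of HSP90AB1. The mutated share at these 7 sites ran from 2.16 to 8.57% with a median of 4.35%. Over the 51 deep sites, which include these 7, the median was 3.92% (quartiles 2.35 and 6.02%). The median of the 7 lay between these quartiles, and their lowest and highest values lay outside them. No deep site in the list had under 4 mutated tags, and the 185-tag site of HSP90AA1 stood at that number. Of the 9 mutation sites, 8 lay within 50 nt of a truncation site, against 332 of 2023 in the list (16.4%). The same held for 45 of the 51 deep sites, so depth moved with proximity in the whole list. Its part in the count for these genes was not tested. The 8 sites near a truncation site lay in the 3 groups above, 4 of them in the HSP90AB1 group. That group was known when the genes were chosen, so the count of 8 is a description and carries no test.

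**Figure D3:**
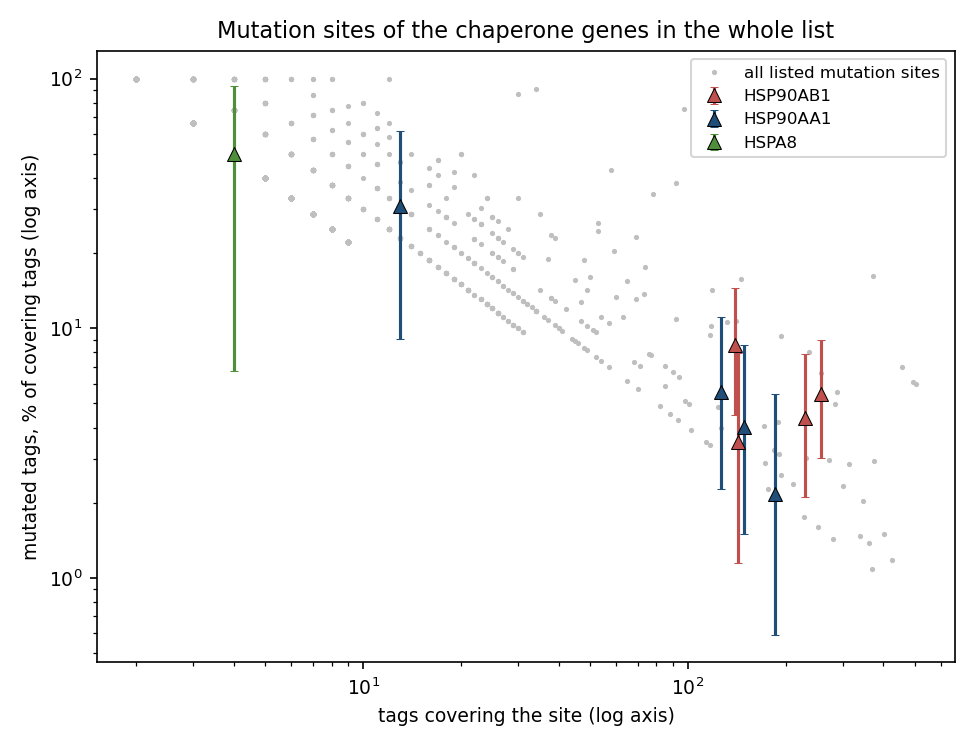
Mutated tags as a percentage of covering tags (y) against covering tags (x), both on log axes, for all listed mutation sites (grey dots) and those of the chaperone genes (triangles with 95% exact Clopper-Pearson intervals). The 7 deep HSP90 sites lie among the grey dots of like coverage, and the HSPA8 site sits at 4 tags.

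From 5′ to 3′ the 3 HSP90AB1 truncation sites were 1848 and 1492 nt apart, and the 4 of HSP90AA1 were 430, 1808 and 1420 nt apart. These are distances on the genome, with any introns between the sites counted, and not positions along a messenger RNA. Without the 430-nt gap they came to 3340 nt in HSP90AB1 and 3228 nt in HSP90AA1. The messenger RNA transcripts used here have 2582 and 3379 nt. With the first HSP90AA1 site set aside, the gaps of the genes differed by 40 and 72 nt. This matching was chosen after the positions were seen, and no value shows how often gaps this close arise by choice, so it is given as a description alone. Taken in this order, the first sites had 14 tags in HSP90AB1 and 26 in HSP90AA1, the second 19 and 14, and the third 7 and 7. Their expected tags per position were 0.73 and 0.98, then 1.90 and 1.30, then 0.27 and 0.26. The HSP90AA1 site set aside had 6 tags. In HSP90AB1 the mutation sites lay at the second of these positions alone, whereas in HSP90AA1 they lay at the first and the second. Whether the matched sites fall on corresponding bases was not tested.

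The sequence that the genes share with one another and with other genes was measured on their transcripts. The HSP90AB1 and HSP90AA1 coding sequences were identical at 76.1% of 2172 aligned positions. Their longest identical run was 23 nt, and it is shown because it bounds how long a perfect match to both coding sequences can be.
shared run: gcctttcaggcagaaattgccca
It lies at coding positions 46 to 68 of HSP90AB1 and 61 to 83 of HSP90AA1. No 30-nt stretch of any of the 5 messenger RNAs occurred in a transcript of another of the 5 genes. Stretches shared with genes outside the group were common. In HSP90AB1, 43.1% of the 30-nt stretches also occurred in transcripts of other genes, led by the pseudogene HSP90AB3P (33.5%). The share was 38.6% in HSP90AA1 (HSP90AA2P, 27.9%), 48.0% in HSPA8 (HSPA8P1, 18.4%) and 47.8% in HSPD1 (HSPD1P1, 31.2%). In HSPA5 it was 19.4%, spread over 338 other genes and led by AL354702.1 (11.6%). How the authors placed tags that match several places is not given in the sources used here, so site numbers and depths of these genes are uncertain to that extent.

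HSPA8 showed another arrangement, with several truncation sites close together, at tag numbers near the median of the list. Its 6 truncation sites and 1 mutation site lay in 1491 nt, at 122928620 to 122930110 on chromosome 11, and joined into 1 locus of 7 sites. From 5′ to 3′ the truncation sites had 8, 5, 6, 8, 8 and 6 truncated tags, against 0.33, 0.15, 0.28, 0.47, 0.47 and 0.20 expected. The median was 7 tags, next to 6 in the whole list (quartiles 5 and 9). The gaps between them were 714, 357, 178, 39 and 182 nt, and the sites 39 nt apart, at 122928802 to 122928861, came from 1 tag cluster. By tags, the highest was shared by the most 5′ site, at 122930090 to 122930110, with an authors' P of 2.41e-06, and these 2 neighbours. The mutation site, at 122929176 to 122929196, was covered by 4 tags with 2 mutated (50%, 6.76 to 93.2%), and lay 157 nt 5′ of the nearest truncation site.

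HSPA5 and HSPD1 had isolated sites with 4 to 6 truncated tags, of which 6 is the median of the list and 4 its lowest number. The HSPA5 sites were 4444 nt apart on chromosome 9, with 6 truncated tags against 0.24 expected at 128003357 to 128003377 and 4 against 0.08 at 127998913 to 127998933. The single HSPD1 site, at 198353778 to 198353798 on chromosome 2, had 4 tags against 0.09 expected. No listed truncation site had under 4 tags. The ratio of observed to expected tags was highest at the 4-tag sites, at 50 in HSPA5 and 44.4 in HSPD1, and lowest at the HSP90AB1 site with 19 tags. At the 6-tag HSPA5 site it was 25. With a fixed smallest tag number, a low expected number comes with a high ratio by selection.

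Across the 16 truncation sites the tags ran from 4 to 26 with a median of 7. Sites with 14 or more tags numbered 4, all in the HSP90 pair. This limit is the lowest tag number among these 4, and 8.31% of the listed truncation sites reach it. The other 12 had 4 to 8 tags, as 72.4% of the list did. The expected tags per position were above 0.7 at the same 4 sites, a limit chosen after the values were seen, and 3 of the 4 had a mutation site within 50 nt. None of the other 12 had one. In the whole list, 63 of 282 truncation sites (22.3%) with an expected number of at least 0.7 had a mutation site that near, and 258 of 4449 (5.80%) of the others.

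**Figure D4:**
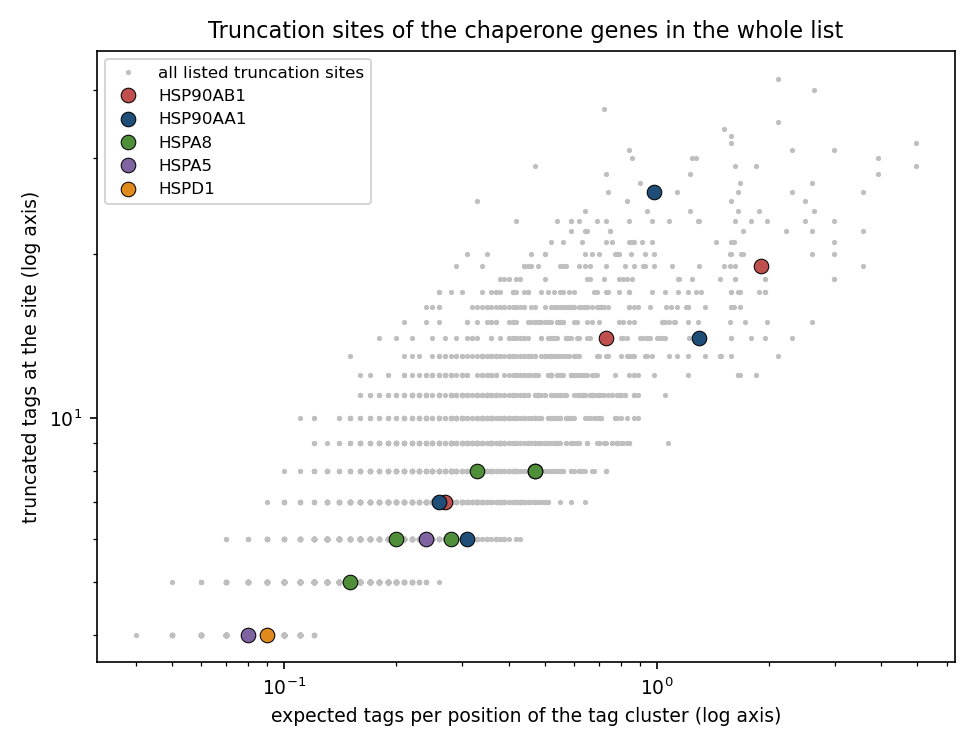
Truncated tags (y) against expected tags per position of the tag cluster (x), both on log axes, for all listed truncation sites (grey) and those of the chaperone genes (coloured). The HSP90 genes supply the 4 sites at 14 or more tags, and the HSPA5 and HSPD1 sites with 4 tags lie on the lower edge of the list.

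The numbering of tag clusters gave a view of the RNA between the sites. Along each chromosome strand the cluster numbers of the listed truncation sites only rose or stayed equal (0 decreases). The numbers between the first and the last site of a gene thus count the clusters that the authors numbered there, if none was skipped. This stretch spanned 24 cluster numbers in HSP90AB1, of which 3 held a listed truncation site, and 24 in HSP90AA1, of which 4 did. In HSPA5 it was 2 of 22, and in HSPA8 it was 5 of 11, in a shorter stretch. In each of these genes both end clusters hold a site, because the stretch runs from the first to the last site. HSPA5 thus had no listed truncation site in the clusters between. The numbered clusters themselves are not in the list. By GAAGA per 1000 coding nt, HSP90AA1 (14.1) had 8 sites, HSP90AB1 (10.6) 7, HSPA5 (8.66) 2, HSPD1 (6.40) 1 and HSPA8 (4.64) 7. Whether motif density goes with the number of sites was not tested. RNA abundance was not measured in this series, so sites cannot be set against the level of each messenger RNA.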

How the data were processed

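SRSF1 HITS-CLIP was done on 2 replicates of H1299 cells. Reads were handled with cutadapt and BWA 0.7 on the hg19 build, per the submitters' processing notes. The authors deposited 1 combined list of sites with a tag count per site, the truncated tags of a truncation site or the mutated tags of a mutation site. The names also hold expected tags and P, or covering and mutated tags, read here by the naming of the CTK toolkit. How sites were called, duplicates removed and repeated reads placed is not given in the sources used here.

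Members were sites whose midpoint fell in the windows. Distances are between midpoints on the genome, 5′ to 3′, with any introns counted. Intervals are exact Clopper-Pearson 95% intervals (scipy 1.17.1) and cover counting error only. Transcript features used GENCODE v29 (GRCh38), 1 transcript per gene by APPRIS rank, support level and coding length, aligned with Biopython 1.88. The sorting into windows and the distances were tested on simulated sites. The rule for named sites took all HSP90AB1 sites and, elsewhere, at least the highest truncation and the deepest mutation site. Members and lists were chosen with earlier results of these data known. The list of other chaperone genes needs an hg19 annotation and was not analysed here.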

Additional observations from a re-analysis of the deposited data

How the results depend on the processing

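No paired analysis was possible because both replicates belong to 1 group and were deposited as a single combined list. For the same reason no replicate could be left out. The 25 sites became 16 when sites within 50 nt were merged, with HSP90AB1 going from 7 to 3 and HSP90AA1 from 8 to 4, which leaves HSPA8 with the most, 6. The 16 truncation sites became 7 at a P of at most 1e-05, of which HSP90AB1 and HSP90AA1 held 3 each and HSPA8 held 1. The share of mutation sites near a truncation site, 88.9% within 50 nt, was 77.8% within 25 nt and 44.4% within 10 nt. The windows widened by 1000 nt, or holding the whole interval, gave 25 sites again, and without HSP90AB1, an alternative chosen after seeing the data, 18 sites were left. HSP90AB1 ranked 1 by site density also with sites joined up to 500 nt (50 loci of 5 or more sites) and up to 100 nt (21 loci). The median mutated share, 5.45%, was 4.90% at 10 or more covering tags and 5.13% by summed tags. Sites above the median tag count of their kind numbered 17, and HSPA8 went from 7 to 3, HSPA5 from 2 to 0 and HSPD1 from 1 to 0, while HSP90AB1 kept 7 and HSP90AA1 had 7. With at least 6 truncated tags 13 truncation sites were left, HSPA5 going from 2 to 1 and HSPD1 from 1 to 0. At the stricter P neither HSPA5 nor HSPD1 had a site (0). Of 44 alternative values for single genes, these and those above make up the 10 that moved by more than their limit. Low tag numbers limit HSPA8, HSPA5 and HSPD1, whose sites rest on 4 to 8 truncated or covering tags. The tags covering a truncation site are not listed.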

Other observations

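Coverage of neighbouring mutation sites rose towards the 3′ end in each group of the HSP90 genes. All 5 pairs of neighbouring mutation sites within 50 nt in these genes had the higher coverage at the 3′ member. In the whole list the 3′ member was the higher of the pair in 30 of 57 such pairs (52.6%), the lower in 20 and equal in 7. The 5 pairs come from 3 groups and can share tags, so they cannot be taken as independent. The pairs of the list include the 5.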
